A study of Mus musculus with 5 samples.

Results

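The Notch receptors and their transcriptional effectors were read in haematopoietic stem cells of mouse bone marrow as a set of 8 genes, chosen by symbol among the 35976 gene rows of a count table. The 8 are the receptors Notch1 and Notch2, the sheddases Adam10 and Adam17, the adaptor Numb, the DNA-binding factor Rbpj, the coactivator Maml1 and the target gene Hes1. All 8 symbols were rows of the table. The 5 libraries, from different C57BL/6 mice according to the series text, carried the label WT (2 libraries) or Ythdf3-/- (3 libraries). The protein YTHDF3 is a cytoplasmic protein that binds N6-methyladenosine in mRNA. The labels give no age, sex or allele, and the series text counts the genotypes the other way round, as 2 knockout and 3 wild-type samples. Each library was made by Smart-seq2, a full-length cDNA method without strand or molecule identifiers, from 30 cells sorted as Sca-1+, c-kit+ and CD150+ without lineage markers or CD34.

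Notch receptors are transmembrane proteins that are activated by Delta-like or Jagged ligands on a neighbouring cell. Ligand binding exposes a site that ADAM metalloproteases cut, after which gamma-secretase frees the intracellular domain. That domain enters the nucleus, joins the DNA-binding protein RBPJ and a Mastermind-like coactivator, and switches on genes of the HES and HEY families. In blood, Notch signalling is best known for directing progenitors to the T cell lineage and for the emergence of stem cells in the embryo.

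Library totals ran from 6357862 to 16650134 counts, so 1 count was worth between 0.0601 and 0.157 CPM (counts scaled to the same library total). The labels were checked by the targeted gene, and its counts did not follow them. The WT-labelled libraries 1 and 2 held 20 and 29 counts of Ythdf3, and the libraries labelled Ythdf3-/- 1, 2 and 3 held 2, 339 and 366. With the allele not given and the groups overlapping, these counts cannot decide whether the labels are right. Libraries are therefore called by their labels alone, and higher or lower refers to those labels. Of 12 stem cell markers, 11 or 12 had over 3 counts in every library, with a summed level of 1836 to 3774 CPM. Slamf1, which encodes the sorting antigen CD150, had 1 count in the library labelled WT 2 and between 211 and 482 elsewhere. Cd34, whose product the sort excluded, was lowest in the library labelled Ythdf3-/- 2, with 20 counts, and had 522 to 3455 in the others. In pools of this kind, fewer cells of a type and less RNA per cell cannot be told apart.

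Of the 2 receptors in the set, Notch2 was read in all libraries with a narrow range within each label, while Notch1 was nearly missing from a library. Notch2 (chromosome 3, 98013527 to 98150361 in GRCm38, which is mm10) reached 4869 and 3219 counts in WT-labelled libraries 1 and 2, or 292.4 and 358.9 CPM. Of its exon bases, 5.15% overlap Gm42820 on the same strand. In the libraries labelled Ythdf3-/- 1, 2 and 3 it had 821, 1321 and 1271 counts, or 129.1, 145.5 and 181.1 CPM. Both libraries labelled WT thus lay above all 3 labelled Ythdf3-/-, with means of 325.7 ± 47.0 CPM (SD, n = 2) and 151.9 ± 26.6 CPM (SD, n = 3). The log2 fold change, Ythdf3-/- label minus WT label, was -1.20 with a standard error of 0.40 in edgeR's quasi-likelihood test, with an unadjusted p of 0.0178. It did not pass after adjustment over the 11146 genes tested (edgeR adjusted p = 0.964). DESeq2 gave an adjusted p of 0.381 and limma voom one of 0.755.

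Notch1 (chromosome 2, 26457903 to 26516663) was nearly missing from a single library. It had 6 counts in the library labelled WT 1, or 0.360 CPM, against 504 counts and 56.2 CPM in that labelled WT 2. The libraries labelled Ythdf3-/- 1, 2 and 3 had 792, 460 and 705 counts, or 124.6, 50.7 and 100.5 CPM. The library labelled WT 2 lay within the range of the Ythdf3-/- label, so the groups overlapped, and the 2 libraries labelled WT differed from each other by 156-fold. The log2 fold change was 1.57 with a standard error of 1.61 (edgeR adjusted p = 0.9998). Leaving out the library labelled WT 1 gave 0.57, and leaving out that labelled WT 2 gave 7.91. Of the exon bases of Notch1, 14.5% overlap Gm13568 and 0610009E02Rik on the other strand, and the library type keeps no strand.

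**Figure D1:**
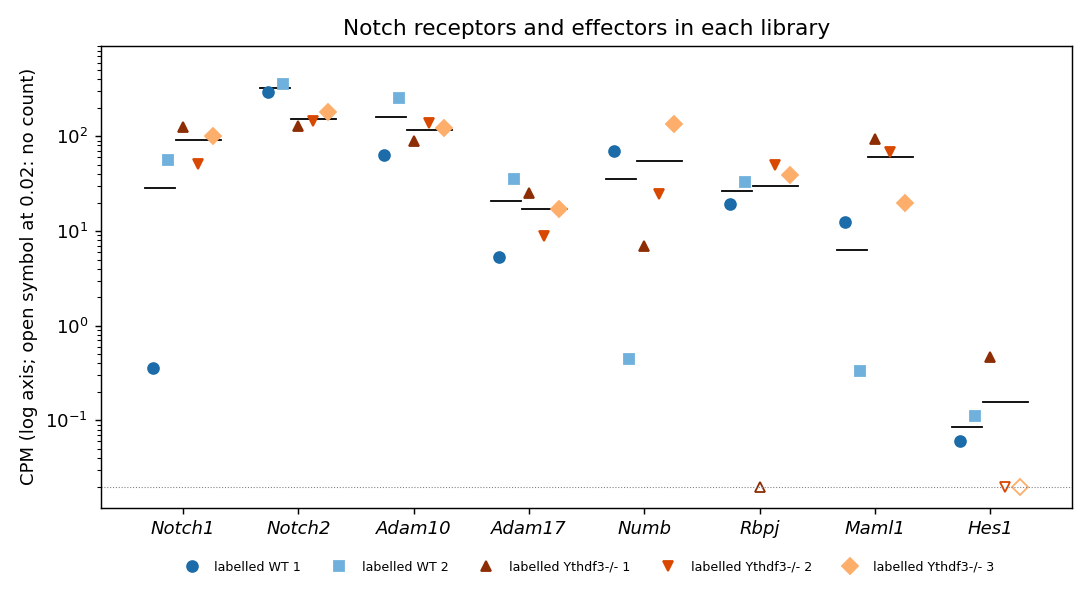
CPM of the 8 genes (log axis) in each of the 5 libraries, with a symbol per library, a short black line at each label's mean, and open symbols at the dotted line for no count. Notch2 separates the labels within a narrow range, while Notch1, Numb, Rbpj and Maml1 each have a library at or below 0.446 CPM.

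The balance between the receptors therefore varied from library to library. Per kb of annotated exon, Notch2 exceeded Notch1 by 733-fold in the library labelled WT 1 and by 5.77-fold in that labelled WT 2. The ratios were 0.937, 2.60 and 1.63 in the libraries labelled Ythdf3-/- 1, 2 and 3, so Notch1 was the higher receptor only in Ythdf3-/- 1. As a share of the counts of both genes, Notch1 took 0.123% in WT 1 (95% Wilson interval 0.0564 to 0.268) and 13.5% in WT 2 (12.5 to 14.7). The share was 49.1% (46.7 to 51.5), 25.8% (23.8 to 27.9) and 35.7% (33.6 to 37.8) in the libraries labelled Ythdf3-/- 1, 2 and 3. These intervals lie apart from each other, within a label as well as between labels. They treat each read as an independent draw and cover no variation between animals or cells. Without molecule identifiers, copies of the same molecule cannot be told from separate molecules, so the intervals may be too narrow. Their separation therefore cannot decide whether the libraries differ in their share of transcripts.

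The remaining receptors were patchy as well. Notch3 reached 2360 and 423 counts in WT-labelled libraries but 4, 189 and 3 in the others. Its groups did not overlap (log2 fold change -3.74, standard error 1.85, edgeR adjusted p = 0.983), and the log2 value was -7.53 without the library labelled Ythdf3-/- 2. Notch4, best known from endothelium, had 1098 counts in WT 1 and 164 in Ythdf3-/- 1, and 1 or 2 counts in the others. Summed per kb of exon, the 4 receptors came to 55.6 and 46.0 CPM per kb in WT-labelled libraries and to 29.4, 21.8 and 27.9 with the Ythdf3-/- label. Notch2 made up between 41.8% and 74.3% of that sum. Notch3 added 31.8% in WT 1 and Notch4 18.0%.

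**Figure D2:**
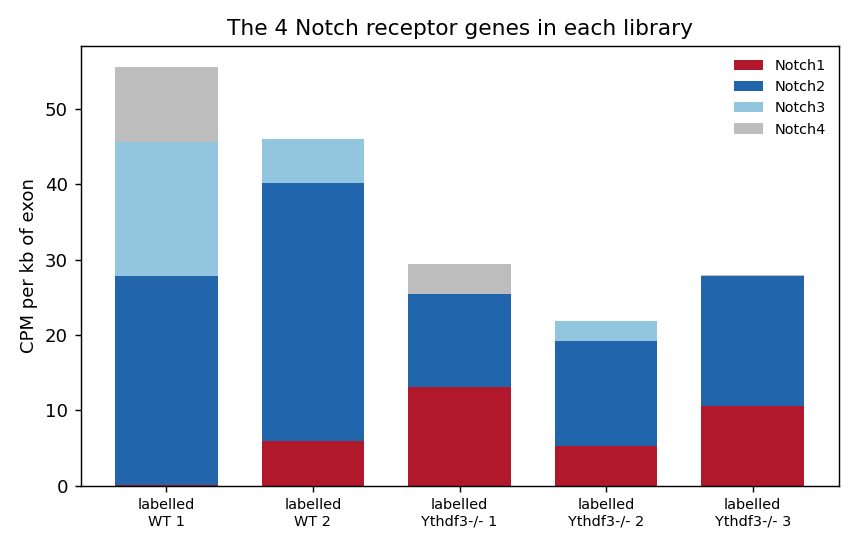
Stacked bars of the 4 receptor genes in CPM per kb of exon, a bar per library. The bars reach 46.0 or more with the WT label and at most 29.4 with the Ythdf3-/- label, and the Notch1 segment is all but missing in the library labelled WT 1.

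Summed levels of megakaryocyte, monocyte and macrophage, and T and NK cell markers separated the labels, in the direction of Notch2 or against it. The sums of the stem cell, multipotent progenitor, erythroid, B cell, neutrophil, and stromal and endothelial lists overlapped. Neutrophil markers, for example, summed to 861 and 1051 CPM with the WT label and to 994 to 1570 CPM with the Ythdf3-/- label. Of single genes tested, 20.7% separated the labels. The 8 megakaryocyte markers summed to 296.1 and 401.3 CPM with the WT label and to 158.3 to 223.3 CPM with the Ythdf3-/- label, with 4 to 7 of them above 3 counts and none at 0 throughout. The sum of the 10 monocyte and macrophage markers went the other way, with 27.3 and 47.8 CPM against 63.9 to 241.7 CPM. Of these, 1 to 7 were above 3 counts, and Ccr2 had no count in any library. The 9 T and NK cell markers in the table summed to 10.4 and 10.9 CPM against 30.5 to 93.8 CPM, with 2 to 4 above 3 counts, and Cd3d, Cd3g, Cd4 and Cd8a had no count. The lists did not move as a whole. Pf4 and Nrgn (megakaryocyte), C1qc (macrophage) and Lck (T and NK cell) separated the labels in the direction of their sums. Vwf and Gp9, C1qb and Cd68, and Nkg7 were among those that overlapped between the labels. The part of these markers in the Notch2 difference was not tested.

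The proteases that cut the receptors after ligand binding were present in every library. Adam10 (chromosome 9, 70678997 to 70780229), the main sheddase of ligand-bound Notch, had 1064 and 2301 counts with the WT label, or 63.9 and 256.6 CPM. Under the Ythdf3-/- label it had 574, 1263 and 852 counts, or 90.3, 139.2 and 121.4 CPM. Its highest and lowest libraries were both labelled WT, so the 3 labelled Ythdf3-/- lay between them. Its log2 fold change of -0.56 (standard error 0.68, edgeR adjusted p = 0.9998) was 0.84 when the library labelled WT 2 was left out and -1.26 when WT 1 was.

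Adam17 (chromosome 12, 21323509 to 21373632), which sheds TNF and many other surface proteins, was lower, with its extremes in the same libraries as those of Adam10. It had 88 and 321 counts with the WT label (5.29 and 35.8 CPM) and 162, 81 and 121 with the Ythdf3-/- label (25.5, 8.92 and 17.2 CPM). Again the WT label held both extremes, and the fold change of -0.37 on the log2 scale (standard error 1.93, edgeR adjusted p = 0.9998) turned to 1.66 without the library labelled WT 2. Of the exon bases of Adam17, 6.90% overlap Iah1 on the other strand, and without strand such reads cannot be assigned. Per kb of exon, Adam10 exceeded Adam17 in all 5 libraries, by 3.48-fold to 15.3-fold.

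Numb (chromosome 12, 83794034 to 83921934), an endocytic adaptor that restrains Notch and is passed unequally to daughter cells in some divisions, varied widely within labels. It had 1168 counts in the library labelled WT 1 (70.2 CPM) and 4 in WT 2 (0.446 CPM), a difference of 157-fold. The libraries labelled Ythdf3-/- 1, 2 and 3 had 44, 222 and 939 counts, or 6.92, 24.5 and 133.8 CPM. The groups overlapped throughout. The log2 fold change of 0.57 (standard error 1.91, edgeR adjusted p = 0.9998) was 6.75 without the library labelled WT 1, -0.37 without WT 2 and -1.20 without Ythdf3-/- 3. Numbl, the related adaptor gene, had no count in any library, which allows up to 0.180 to 0.472 CPM per library.

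In the nucleus, Rbpj (chromosome 5, 53466152 to 53657362), the factor through which all canonical Notch signals reach DNA, was read in 4 libraries and not at all in the fifth. It had 322 and 297 counts with the WT label (19.3 and 33.1 CPM) and 453 and 272 in the libraries labelled Ythdf3-/- 2 and 3 (49.9 and 38.8 CPM). The library labelled Ythdf3-/- 1 had 0 counts of its 6357862, which allows up to 0.472 CPM and puts it at least 106-fold lower than Ythdf3-/- 2. That library held 792 counts of Notch1 and 590 of Maml1. Its 11 erythroid markers, of a lineage that the sort excluded, summed to 36558 CPM against 34.9 to 1468 CPM in the others, with 9 of them over 3 counts (7 to 11 elsewhere) and none at 0 throughout. Its 10 B cell markers were also the highest, at 1588 CPM against 58.9 to 605.0 CPM, with 8 over 3 counts (5 to 10 elsewhere). The part of these markers in the missing Rbpj counts was not tested. The log2 fold change was 0.08 (standard error 2.22, edgeR adjusted p = 0.9998), and 0.69 without that library. The genome also holds processed copies of Rbpj, and how reads that match several places were treated is not given in the sources used here, so its counts are uncertain.

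Maml1 (chromosome 11, 50255634 to 50292311), which bridges the receptor domain and RBPJ to histone acetyltransferases, was higher in every library labelled Ythdf3-/-. It had 206 and 3 counts with the WT label, or 12.4 and 0.335 CPM, and 590, 617 and 140 with the Ythdf3-/- label, or 92.8, 68.0 and 19.95 CPM. The gap between the groups was narrow, from 12.4 to 19.95 CPM, against a spread of 4.65-fold within the Ythdf3-/- label. The log2 fold change was 3.19 with a standard error of 1.89 (edgeR adjusted p = 0.9998). Leaving out a WT-labelled library gave 2.24 (WT 2) or 7.31 (WT 1). Maml3, a related coactivator gene, had 29.2 and 0.112 CPM (1 count) against 57.3, 60.5 and 37.3 CPM, also without overlap. Its log2 fold change was 1.76 with a standard error of 1.95 (edgeR adjusted p = 0.9998). Both Maml1 and Maml3 were at or under 3 counts in the library labelled WT 2. Of all genes tested, 9.74% were higher in every library labelled Ythdf3-/-. Maml2 overlapped between the labels, with 120.7 and 52.7 CPM against 34.6, 89.2 and 66.6 CPM.

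Hes1 (chromosome 16, 30064384 to 30067796), the repressor most often read as a Notch target, was at or under 3 counts everywhere. It had 1 count in each library labelled WT and 3, 0 and 0 in those labelled Ythdf3-/-, at most 0.472 CPM. It did not pass the filter on low counts and was not tested, and no fold is given. Of the other 8 HES and HEY genes, 6 had no count in any library (Hes2, Hes3, Hes5, Hes7, Hey1 and Hey2) and Heyl had 3 counts in all. Summed over Hes1 and these 7, the 5 libraries together held 8 counts. At this depth, transcripts of these genes were thus at or under the limit that 3 counts allow, while 5 of the 8 Notch genes above had over 3 counts in each library.

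Hes6 was the exception in the family. It encodes a HES protein that is known to oppose HES1 and is not a classical Notch target, and it had 1936 and 253 counts with the WT label and 1523, 1002 and 490 with the Ythdf3-/- label. The groups overlapped (log2 fold change 0.89, standard error 0.85, edgeR adjusted p = 0.9998). The value for Hes6 was 2.18 without the library labelled WT 1, 0.22 without WT 2 and 0.27 without Ythdf3-/- 1.

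Promoters of 2 unread targets are shown as examples that carry letters RBPJ is known to bind. RefSeq windows of 300 bases (250 before and 50 after the start, GRCm38.p6) were searched for GTGGGAA on both strands, and 6.38% of all 32851 windows held it. Windows were at hand for 4 HES and HEY genes, and 3 held a match (Hes5, Hes7 and Hey2), whereas that of Hes6 held none. No window was at hand for Hes1. Matches were counted per gene over all its windows, whereas the 6.38% is a share of windows. Of the 7 Notch genes of the set with a window, 0 had a match, and of 55 further pathway genes 7 had one. The latter include genes that were read, Lfng, Psen2, Aph1a and Spen, while the unread targets Nrarp, Dtx1, Tcf7 and Ptcra had none. Hes5 and Hey2, chosen after the matches were counted, each held 2. They follow 5′ to 3′ on the gene's strand, from 250 bases before the start to 20 from it, with each match in capitals (TTCCCAC is the match on the opposite strand). Hes5 lies on the plus strand at chr4:154960673-154960942, and its matches begin at -226 and -83 from the start. Hey2 lies on the minus strand at chr10:30842764-30843033, and its matches begin at -207 and -4.
Hes5: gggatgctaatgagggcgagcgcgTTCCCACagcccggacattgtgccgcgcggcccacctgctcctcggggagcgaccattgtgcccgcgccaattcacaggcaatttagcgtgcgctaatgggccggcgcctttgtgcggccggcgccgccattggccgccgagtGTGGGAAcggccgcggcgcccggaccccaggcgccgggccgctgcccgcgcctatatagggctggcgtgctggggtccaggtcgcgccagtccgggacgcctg
Hey2: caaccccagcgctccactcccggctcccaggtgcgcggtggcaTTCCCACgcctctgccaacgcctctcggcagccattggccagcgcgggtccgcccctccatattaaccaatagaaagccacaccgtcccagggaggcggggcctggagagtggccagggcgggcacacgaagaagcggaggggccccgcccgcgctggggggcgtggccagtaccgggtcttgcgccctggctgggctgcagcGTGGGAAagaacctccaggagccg
A match is a run of letters and says nothing of whether RBPJ was bound in these cells.

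Between the labels, 0 of the 7 genes tested passed in edgeR, limma voom or DESeq2, and 1 (Notch2) had an unadjusted p under 0.05 in edgeR. Over all 11146 genes tested, 0.00% passed edgeR after adjustment and 4.85% had an unadjusted p under 0.05; DESeq2 called 250 genes (2.39% of those with an adjusted p) and limma voom 0. The groups did not overlap for 2 of the 7, Notch2 (lower with the Ythdf3-/- label) and Maml1 (higher), against 20.7% of all genes tested. By direction, 1 of 7 stood beside 11.0% of genes that were lower and 1 of 7 beside 9.74% that were higher in every library labelled Ythdf3-/-. Fitted values were lower for 3 of the 7 and for 52.2% of all genes, with medians of 0.08 and -0.06 on the log2 scale. Each count lies within 1 gene of its background share.

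**Figure D3:**
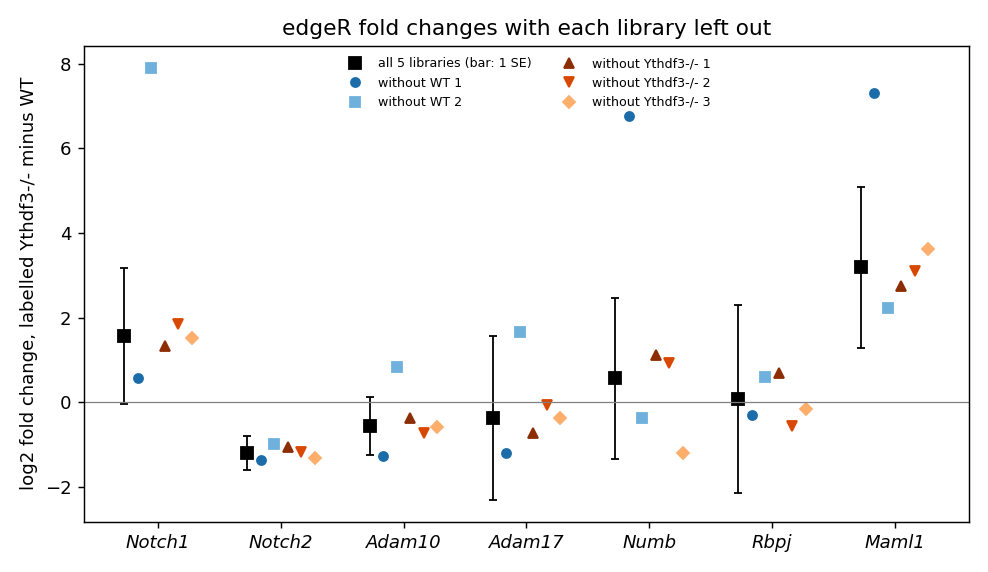
Log2 fold change in edgeR (Ythdf3-/- label minus WT label) of the 7 genes tested, with all libraries (black square, bar of 1 standard error) and with each library left out (coloured symbols). Notch2 stays between -1.37 and -0.98, while Notch1, Numb and Maml1 reach 6.75 or more when a library labelled WT is left out.

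The genes differed widely in how even they were. Among 9289 tested genes with a mean of at least 10 CPM, the highest library exceeded the lowest by a median of 12.7-fold over the 5 libraries, with values under 3 counts set to 3. Notch2 spread over 2.78-fold (percentile 18.0 of those genes), Adam10 over 4.02-fold (29.7) and Adam17 over 6.77-fold (41.7). Notch1 spread over 346-fold (percentile 97.5), and Numb lay at percentile 96.1. Within a label the picture was different for several genes. Between the 2 libraries labelled WT, Adam10 lay at percentile 62.4 and Adam17 at 71.3, less even than the median gene, and Notch1 at 96.8. Among the 3 libraries labelled Ythdf3-/-, Notch1 lay at percentile 35.3, Adam10 at 14.2 and Rbpj at 85.7. Notch2 was at or below percentile 18.0 in all 3 comparisons.

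Levels can be ranked between genes per kb of exon. Adam10 was highest with 29.2 ± 16.2 CPM per kb (SD, n = 5), ahead of Notch2 with 21.1 ± 9.51 in 4 of 5 libraries. Numb followed with 12.6 ± 14.9, below Notch2 in 4 of 5. Notch1 (7.0 ± 5.07), Maml1 (7.0 ± 7.18), Adam17 (4.11 ± 2.75) and Rbpj (4.06 ± 2.77) were not ordered beyond their spread. Neighbours among these were in the order of their means in 2 or 3 of 5 libraries. Hes1 came last with 0.088 ± 0.134.

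The rest of the pathway was read from 72 further genes in 9 lists by role. Of these, 48 passed the filter, and 0 passed edgeR after adjustment or limma voom. DESeq2 called 1, Myc, against 2.39% of all genes. At an unadjusted p under 0.05 in edgeR, 1 was higher (Myc) and 1 lower (Aph1b) with the Ythdf3-/- label, against 4.85% of all genes in either direction. Fitted values were higher for 22 and lower for 26, beside 52.2% lower over all genes. Groups did not overlap for 4 higher and 4 lower, beside 9.74% and 11.0% of all genes, so these counts are at or below the background.

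Ligand transcripts were sparse. Dll3 had no count, Jag1 had 67 in the library labelled WT 1 and at most 1 elsewhere, and 1 of 5 ligand genes passed the filter. That gene, Dll4, had 600 counts in WT 1 and 387 in Ythdf3-/- 2 and none in the others (log2 fold change -0.37, standard error 3.38, edgeR adjusted p = 0.9998). Dll1 and Jag2 reached 291 and 292 counts in Ythdf3-/- 2 and at most 9 elsewhere. The 8 stromal and endothelial markers, of cells that are known to present Notch ligands, summed to 52.0 to 147.4 CPM without order between the labels, and Cdh5, Kdr, Cxcl12 and Lepr had no count.

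Genes of receptor maturation were present in most libraries, with 4 of 6 over 3 counts in each. Mfng, a fringe glycosyltransferase that alters which ligands a receptor answers to, had 4719 and 436 counts against 567, 1674 and 2139. Pofut1, which adds the O-fucose that fringe enzymes extend, had 638 and 1117 counts against 146, 4 and 106. Its groups did not overlap (log2 fold change -2.78, standard error 1.63, edgeR adjusted p = 0.9998), and without the library labelled WT 2 the value was -1.62.

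Gamma-secretase, the complex that makes the last cut, had all 7 genes tested, and 0 passed edgeR or another test. Psenen and Psen2 were read in all libraries, with 873 to 3467 and 551 to 1916 counts. Aph1b, an alternative subunit, had 194 and 132 counts with the WT label and none in the 3 libraries labelled Ythdf3-/- (edgeR unadjusted p = 0.0236, adjusted p = 0.964). Against a floor of 3 counts per library it was at least 32.2-fold lower. The subunits Aph1a (41 and 277 counts against 159, 1 and 1) and Aph1c (784 and 60 against 113, 438 and 138) did not share that pattern. Aph1b and Aph1c are close paralogs, so reads may be divided between them.

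Partners of the ADAM proteases were mostly low. Of 10 genes, Tspan10 and Tspan15 had no count and 5 passed the filter. Tspan14, a tetraspanin that carries ADAM10 to the surface, had 720 and 1565 counts against 2, 786 and 193 (log2 fold change -1.61, standard error 1.59, edgeR adjusted p = 0.9998). For Tspan14 the value was -0.20 without the library labelled WT 2, -1.00 without Ythdf3-/- 1 and -3.10 without Ythdf3-/- 2.

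Coactivators and corepressors were the most complete list, with 13 of 14 over 3 counts in every library and all 14 tested. Kdm5a, a demethylase that RBPJ can recruit, was higher in every library labelled Ythdf3-/-, with 67.8 and 62.8 CPM against 250.9, 103.6 and 108.9 CPM. It did not pass (log2 fold change 1.15, standard error 0.67, edgeR adjusted p = 0.9998). L3mbtl3, a reader of methylated histones that binds RBPJ, went the other way with 942 and 800 counts against 28, 6 and 82 (log2 fold change -3.82, standard error 1.66, edgeR adjusted p = 0.983).

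Among genes of trafficking and turnover, Fbxw7, the ubiquitin ligase subunit that marks the Notch intracellular domain for destruction, had 26 and 3 counts with the WT label and 292, 215 and 178 with the Ythdf3-/- label. Its groups did not overlap, and it did not pass (log2 fold change 4.97, standard error 2.39, edgeR adjusted p = 0.983). Nedd4, a ubiquitin ligase, was read throughout with 1803 to 10423 counts.

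Of 8 other known targets, Nrarp, Dtx1, Tcf7 and Ptcra had no count in any library, and Il2ra had at most 95. Myc, which Notch drives in T cell leukaemia and many other inputs drive elsewhere, had 343.8 and 237.5 CPM with the WT label and 1028, 736.9 and 755.2 CPM in the others. For Myc the log2 fold change was 1.45 with a standard error of 0.34 (edgeR adjusted p = 0.964, DESeq2 adjusted p = 0.00833). Gata2 and Gata3 overlapped between the labels.

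**Figure D4:**
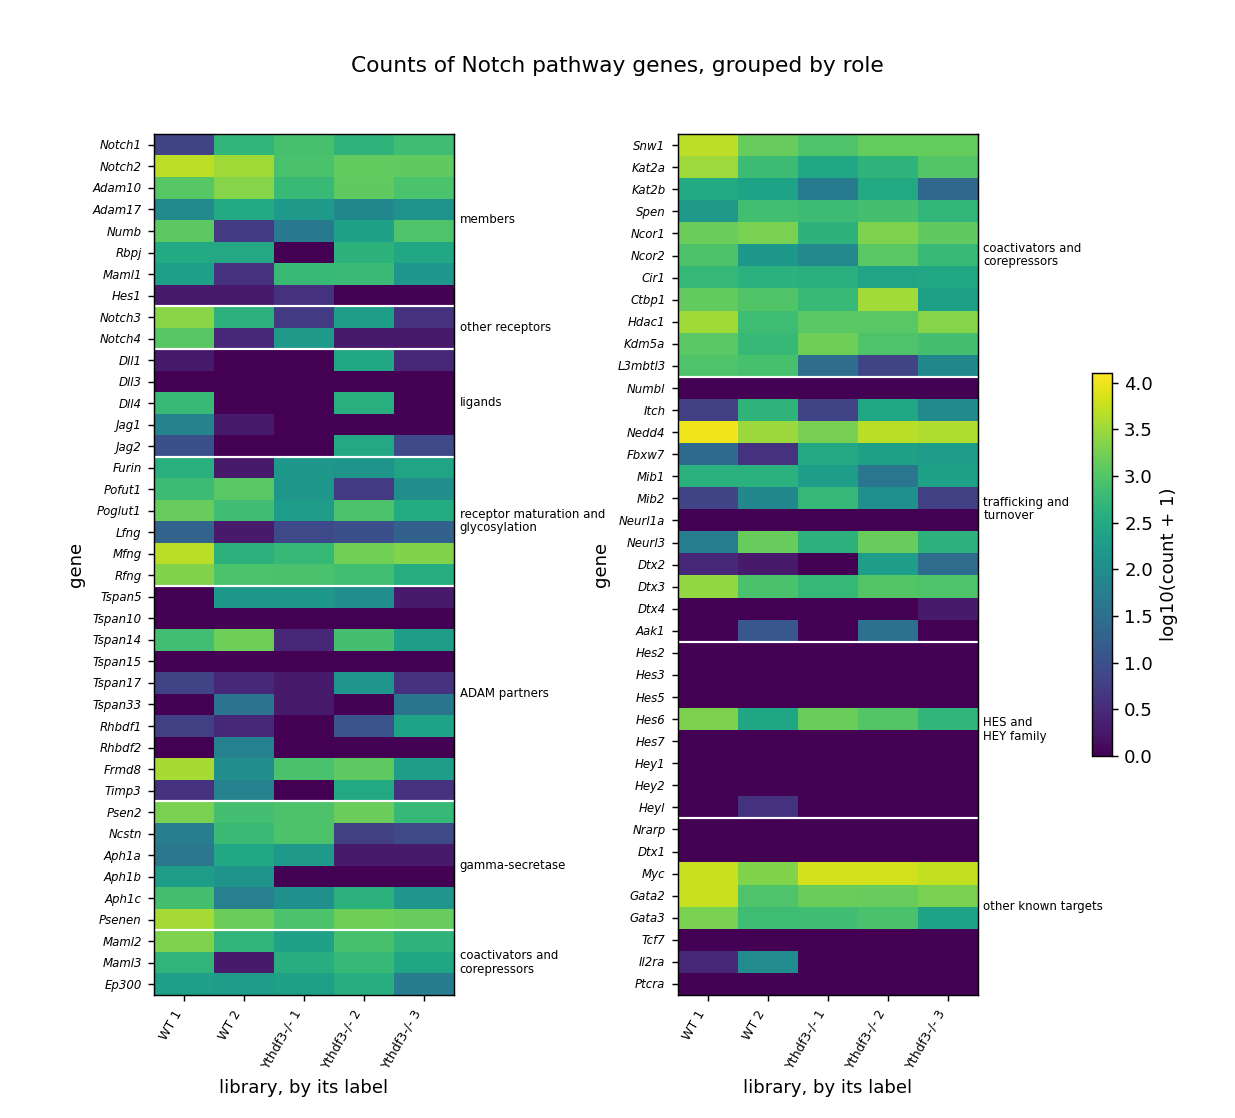
Counts of the 8 Notch genes and of further pathway genes as log10(count + 1), a column per library and white lines between lists. The HES and HEY rows are dark except Hes6, the ligand rows are dark with single bright cells, and the coactivator rows are bright in nearly every library.

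Genes with the profile most like a Notch gene were sought by the root mean square difference of log2 CPM, each gene centred on its mean, over the 5 libraries and 8698 other genes. Nearest to Notch2 were U2surp (0.122), Ddb2 (0.128) and Shfm1 (0.128). Nearest to Notch1 were Prepl (0.251), Dennd4b (0.383) and Ptms (0.419), each with 3 counts in the library labelled WT 1. Nearest to Rbpj were Sepn1 (0.228), Mpi (0.237) and Pogz (0.255), which had 2, 0 and 2 counts in the library labelled Ythdf3-/- 1. Within the set the closest pairs were Adam10 with Adam17 (0.725) and Notch2 with Adam10 (0.735), and Rbpj with Maml1 was the most distant (4.77). With so few libraries and so many genes, close profiles are a description only.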

How the data were processed

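Read counts per gene symbol, not normalized, were deposited by the authors as a table of 35976 rows for 5 libraries; 0 rows held reads without a gene. The submitters' processing notes name mm10 as the build, with HTSeq 0.12.4 and HISAT2 2.2.1 as tools. For the annotation, the strand setting and multiply mapped reads, the choice is not given in the sources used here. Counts were tested in R 4.3.3 with edgeR 4.0.16 (default expression filter, TMM factors, robust quasi-likelihood fit, no covariate), and p-values were adjusted by Benjamini-Hochberg over 11146 genes at 0.05. Standard errors were derived from the F statistic. CPM are counts over the library total. Exon lengths and spans come from GENCODE M21 on GRCm38, which need not be the annotation counted. Alternatives were 3 other scalings, 2 other filters, DESeq2 1.42.0, limma 3.58.1 (voom), a replicate block and leaving out each library. The test was tried on simulated counts, without a result given here. In the main fit the common coefficient of variation between libraries of a label was 1.26. A gene that did not pass is therefore not shown to be unchanged. Members and lists were chosen with earlier results of these data known. All 8 members were named, and for each of the 9 pathway lists the tested gene with the smallest p; others were chosen after their values were seen. A gene of the lists is counted in their totals but not reported here. A floor of 3 counts was used for genes at 0.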

Additional observations from a re-analysis of the deposited data

How the results depend on the processing

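In none of 14 other fits did a Notch gene of the set pass. Notch2 stayed lower under the Ythdf3-/- label in all of them (-1.37 to -0.90), with adjusted p from 0.381 to 1, and Notch1 and Maml1 stayed higher (0.57 to 7.91 and 1.77 to 7.31). Leaving out a library labelled WT leaves 1, which is assumed to vary like the rest. With each library left out in turn, log2 fold changes ran from -1.26 to 0.84 for Adam10 and -1.19 to 1.66 for Adam17. They ran from -1.20 to 6.75 for Numb and -0.56 to 0.69 for Rbpj. For Dll4 they ran from -1.36 to 9.80, but without the library labelled Ythdf3-/- 2 it did not pass the filter and has no value. When a library labelled Ythdf3-/- was left out, 0 or 1 member had an unadjusted p under 0.05 in edgeR. Of the 10513 to 10614 genes tested then, 488 to 498 did, and 0 passed. Members without overlap numbered 2 or 3 there, and 5 when either library labelled WT was left out. Groups separate more readily with fewer libraries, and the share of all genes without overlap was not counted for these comparisons. Limma voom gave 0.077 for Adam10, 0.52 for Adam17 and -2.01 for Rbpj. Without the libraries labelled WT 2 and Ythdf3-/- 1, chosen after seeing the data, values were 0.97 for Adam10 and 1.25 for Adam17. They were 0.34 for Tspan14 and -0.43 for Hes6. That leaves 1 library against 2, where groups separate more readily, and 6 members did not overlap. The share of all genes without overlap was not counted there, so the 6 cannot be read as a stronger difference. DESeq2 called 250 genes and 1 other pathway gene. Its unadjusted p was under 0.05 for 2 members and for 1031 of the 11146 genes fitted. The edgeR fit with no filter called 21 genes. These changes have causes that were not tested.

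Replicate numbers 1 and 2 occur under both labels, but the labels do not state that they pair animals, and they were not taken to. Deviations from the label mean in same-numbered libraries had correlations of -0.0043 and 0.0095 over genes. With 2 libraries labelled WT, the deviations of these mirror each other. The correlations are therefore not separate checks and cannot exclude pairing. With the replicate block, 0 members had an unadjusted p under 0.05 and 285 genes did, against 541; Adam17 was 0.054, Rbpj -3.55 and Dll4 0.17.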

Other observations

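Near-complete gaps in single libraries were counted after the values were seen. Of 56 Notch pathway genes with at least 100 counts in some library, 19 (33.9%) had at most 3 counts in another, against 4895 of 11741 such genes in the whole table (41.7%). The gaps fell in every library: 4 of the 56 in that labelled WT 1 and 11 in WT 2. There were 11, 3 and 9 in the libraries labelled Ythdf3-/- 1, 2 and 3. Over all genes of that level the shares were 10.7%, 16.9%, 24.4%, 19.4% and 20.1% in the same order. In the library labelled WT 2 the gaps took Maml1, Maml3, Furin, which cleaves the receptor precursor, and Fbxw7. In that labelled Ythdf3-/- 1 they took Rbpj and Tspan14. Each of these genes had over 100 counts in at least 2 other libraries. Over all genes, the deepest library (WT 1, 16650134 counts) had the smallest share and the shallowest (Ythdf3-/- 1, 6357862) the greatest; the part of depth was not tested.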
